A study of Mus musculus with 19 samples.

Results

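The genes described here are 9 genes that mark the secretory cells of the mouse airway lining: Scgb1a1, Scgb3a1, Scgb3a2, Cyp2f2, Cbr2, Bpifa1, Bpifb1, Reg3g and Ltf. They were taken by symbol, through the RefSeq accession that the array design gives each probe. Of the 9 genes, 8 were found, on 9 of the 41174 probes, since Ltf has 2 probes. No probe accession matched Scgb3a2, and no value is given for it. All 8 genes with a probe passed the filter on dim probes and were among the 19319 genes tested.

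Club cells are the dome-shaped secretory cells of the bronchioles. They release secretoglobins, of which Scgb1a1 (club cell secretory protein) is the best known, and they are rich in enzymes that handle foreign chemicals: Cyp2f2, a cytochrome P450 that activates naphthalene and related compounds, and Cbr2, a carbonyl reductase of mouse lung. A more proximal set of secretory cells and the submucosal glands release defence proteins onto the airway surface. These include Scgb3a1, another secretoglobin, the BPI-fold proteins Bpifa1 (SPLUNC1) and Bpifb1 (LPLUNC1), the antibacterial lectin Reg3g, and Ltf, lactoferrin, an iron-binding protein that neutrophil granules also hold.

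The mice were MutaMouse animals, males of transgenic strain 40.6 aged 25 weeks, which carry a bacterial reporter gene used to count mutations. Benzo[a]pyrene (BaP), one of the polycyclic aromatic hydrocarbons of smoke and soot, was given by mouth every day for 28 days at 25, 50 or 75 mg/kg/day, and the series title names a vehicle control for the mice at 0 mg/kg/day. Part of the lung, with no statement of which part, was taken 3 days after the last dose from 5 control mice, 5 mice at 25, 4 at 50 and 5 at 75 mg/kg/day; the design text speaks of 5 mice a group. The RNA of each mouse, labelled with Cy5, was hybridised on an array of its own against one Cy3-labelled reference RNA made from 11 mouse cell lines, with no dye swap, so each value is a log2 ratio of lung over reference. In the lung channel 45.6% to 62.9% of the spots exceeded background clearly by the scanner's own call (well above background below). The 19 arrays lay on 6 slides of 2 to 4 arrays, scanned on 5 days, and the scanner software marked 4 arrays (mice 1, 3, 12 and 20) for evaluation. As a check of the labelled tissue, the club cell genes Scgb1a1, Cbr2 and Cyp2f2 had lung spot intensities of 114837 to 284592, 104468 to 280896 and 29075 to 85771, and all were well above background on every array. The lung pieces hold many cell types, and fewer cells of a type and less RNA per cell cannot be told apart.

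Promoters are shown for the single gene that passed the test with dose and for the 5 genes that varied together between mice, as the 250 bases before the annotated start in RefSeq (GRCm38.p6), read in the direction of the gene. Promoters of 7 of the 9 genes were searched in the RefSeq table. Capitals mark matches to a FOXA motif (TGTTTNC) or a C/EBP motif (TTGCNNAA), searched on both strands with the letters GCGTG, the core of the element bound by the aryl hydrocarbon receptor.
Cbr2 promoter (chr11:120732022-120732271, minus strand): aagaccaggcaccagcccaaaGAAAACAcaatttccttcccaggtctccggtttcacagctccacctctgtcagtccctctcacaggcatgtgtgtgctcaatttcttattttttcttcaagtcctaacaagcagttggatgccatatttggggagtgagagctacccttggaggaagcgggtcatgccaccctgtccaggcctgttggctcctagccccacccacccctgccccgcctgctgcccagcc
Bpifa1 promoter (chr2:154142630-154142879, plus strand): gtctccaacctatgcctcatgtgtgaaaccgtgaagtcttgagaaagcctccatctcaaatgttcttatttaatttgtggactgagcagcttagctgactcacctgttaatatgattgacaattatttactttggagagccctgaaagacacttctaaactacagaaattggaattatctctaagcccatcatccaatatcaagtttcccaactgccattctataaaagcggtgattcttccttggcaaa
Bpifb1 promoter (chr2:154190568-154190817, plus strand): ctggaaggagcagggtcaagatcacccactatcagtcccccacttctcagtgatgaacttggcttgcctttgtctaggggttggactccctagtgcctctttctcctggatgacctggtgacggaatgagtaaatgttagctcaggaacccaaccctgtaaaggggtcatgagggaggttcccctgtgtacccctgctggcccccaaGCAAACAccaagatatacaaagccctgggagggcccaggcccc
Scgb3a1 promoter (chr11:49663345-49663594, plus strand): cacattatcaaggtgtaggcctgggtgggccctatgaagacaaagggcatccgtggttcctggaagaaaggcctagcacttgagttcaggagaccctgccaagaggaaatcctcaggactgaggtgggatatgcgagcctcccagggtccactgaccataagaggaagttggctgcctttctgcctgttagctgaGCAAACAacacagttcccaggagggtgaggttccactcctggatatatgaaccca
Reg3g promoter (chr6:78468875-78469124, minus strand): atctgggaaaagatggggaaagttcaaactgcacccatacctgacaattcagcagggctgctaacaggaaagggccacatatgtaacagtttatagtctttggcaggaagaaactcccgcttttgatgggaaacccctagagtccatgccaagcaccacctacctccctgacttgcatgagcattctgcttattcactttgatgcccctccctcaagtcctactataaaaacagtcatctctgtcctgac
Ltf promoter (chr9:111019042-111019291, plus strand): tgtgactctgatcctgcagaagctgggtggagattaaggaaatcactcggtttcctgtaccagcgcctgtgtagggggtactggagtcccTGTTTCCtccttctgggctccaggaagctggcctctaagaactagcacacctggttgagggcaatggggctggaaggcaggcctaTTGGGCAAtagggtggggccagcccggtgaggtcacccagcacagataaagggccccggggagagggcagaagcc

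The GCGTG core was found in none of these 6 windows, whereas 28.2% of the 32851 windows of the same length in the table held it on either strand. The FOXA letters were found once each in the windows of Cbr2, Bpifb1, Scgb3a1 and Ltf, and in 17.8% of all windows. The C/EBP letters were found in the window of Ltf alone, against 9.6% of all windows. The Scgb3a1 and Bpifb1 matches have the same 7 letters and begin 55 and 43 bases before the start, and the matches in Ltf begin 160 (FOXA) and 75 bases (C/EBP) before it. The Cbr2 match begins 229 bases before the start, and no match overlapped another. Of the 2 starts that the table lists for Bpifb1, the first is shown; the other window held none of the 3 motifs. A match is a run of letters and not a measured binding site. Bpifa1 and Bpifb1 lie in one cluster on chromosome 2, where their annotated starts are 47.9 kb apart on the same strand.

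The 3 bronchiolar club cell genes were bright in every mouse, with ratios that spanned 3.19-fold for Scgb1a1, 3.67-fold for Cyp2f2 and 1.98-fold for Cbr2 from the lowest to the highest mouse. The log2 ratio of Scgb1a1 was 7.71, 6.92, 7.14, 7.38 and 7.63 in control mice 1 to 5, with a mean of 7.36 ± 0.33 (SD, n = 5). It was 7.20, 6.38, 7.84, 7.55 and 6.77 in mice 6 to 10 at 25 mg/kg/day, 7.16, 7.39, 6.65 and 7.62 in mice 12 to 15 at 50, and 7.33, 7.02, 6.94, 6.17 and 6.88 in mice 16 to 20 at 75. The 4 groups overlapped, and the lowest value of all belonged to mouse 19 at 75 mg/kg/day. Group means at 25, 50 and 75 mg/kg/day were 7.15 ± 0.59 (n = 5), 7.21 ± 0.41 (n = 4) and 6.87 ± 0.43 (n = 5). At 75 mg/kg/day the difference from control was -0.49 ± 0.26 (SE), which did not pass the test (limma, adjusted p = 0.350, 95% interval -1.03 to 0.05), although all 5 mice lay below the control mean. On the 4 slides that held both a control and a 75 mg/kg/day mouse, Scgb1a1 was lower in the treated mouse on all 4, by -0.83 to -0.12. With slide as a block in the fit, the difference was -0.55 ± 0.12 (SE) and passed (adjusted p = 0.0124).

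Cyp2f2, the P450 of club cells, gave log2 ratios of 7.26, 6.63, 6.03, 6.37 and 6.30 in control mice 1 to 5. The ratios were 6.71, 6.24, 6.66, 6.38 and 5.39 in mice 6 to 10 at 25 mg/kg/day, 7.16, 6.42, 6.45 and 6.37 in mice 12 to 15 at 50, and 6.26, 6.02, 5.99, 6.05 and 6.79 in mice 16 to 20 at 75. All groups overlapped, with mouse 10 lowest and control mouse 1 highest. Differences from control were -0.24 ± 0.25 (SE), 0.08 ± 0.27 and -0.30 ± 0.25 at 25, 50 and 75 mg/kg/day, and none passed the test (adjusted p = 0.869, 0.941 and 0.592). On those 4 slides Cyp2f2 was lower in the 75 mg/kg/day mouse on all 4, by -0.59 to -0.01, and with slide as a block the difference was -0.35 ± 0.14 (SE, adjusted p = 0.123), which did not pass. Without the block, the interval at 75 mg/kg/day, -0.83 to 0.23, spans a loss as large as 0.564-fold of the control level and a gain of 1.17-fold.

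Cbr2, the carbonyl reductase, was the one gene of the 8 that passed the test with dose. Its log2 ratio was 5.65, 5.41, 5.41, 5.08 and 5.38 in control mice 1 to 5 (mean 5.39 ± 0.20, SD, n = 5) and 5.03, 4.81, 4.66, 4.66 and 5.13 in mice 16 to 20 at 75 mg/kg/day (mean 4.86 ± 0.21, n = 5). All 5 treated mice lay below the control mean, but the groups overlapped, because control mouse 4 lay below mouse 20. The ratio was 5.42, 5.01, 5.37, 5.28 and 4.81 in mice 6 to 10 at 25 mg/kg/day and 5.35, 5.21, 5.21 and 5.29 in mice 12 to 15 at 50. At 75 mg/kg/day Cbr2 fell by 0.53 ± 0.12 (SE) on the log2 scale, to 0.693-fold of control (95% interval 0.579 to 0.830, adjusted p = 0.0186), and read 0.46 under median centring as described next. At 25 and 50 mg/kg/day the differences were -0.21 ± 0.12 and -0.12 ± 0.13 (adjusted p = 0.729 and 0.770). Over all 19 mice Cbr2 fell by 0.15 ± 0.04 (SE) for each 25 mg/kg/day (adjusted p = 0.0361), and over the 14 treated mice alone the slope was -0.16 ± 0.07, which did not pass (adjusted p = 0.528). The call over all mice was lost with median centring, scanner-processed signals, the authors' deposited ratios or no filter on dim probes, without the marked arrays, and without any one of mice 1, 2, 3, 5, 16, 17, 18 or 19.

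The estimate for Cbr2 at 75 mg/kg/day varied with the normalisation, and its call also varied with the mice included. The cause was not tested. On the same 4 slides, Cbr2 was lower in the treated mouse on all 4, by -0.75 to -0.42, and with slide as a block the difference was -0.56 ± 0.10 (SE, adjusted p = 0.00264). Without mice 4, 13, 14 and 20, a choice made after the data were seen, it was -0.67 ± 0.13 (adjusted p = 0.00894). Mouse 4 was the lowest control (5.08) and mouse 20 the highest at 75 mg/kg/day (5.13), so leaving them out had to widen the difference. The difference no longer passed with the scanner software's own dye-normalised signals (-0.34 ± 0.15, adjusted p = 0.185) or in the authors' deposited ratios (-0.16 ± 0.12, adjusted p = 0.539). Nor did it pass in the lung channel alone (-0.31 ± 0.10, adjusted p = 0.130), which was computed after the loess step. With each array centred on its median in place of the loess curve it turned to 0.46 ± 0.33 (adjusted p = 0.303), a setting that also moved the median of all genes tested to 0.35 and turned Scgb1a1 and Cyp2f2 at 75 mg/kg/day to 0.45 ± 0.48 and 0.56 ± 0.29 (adjusted p = 0.482 and 0.170). Leaving out control mouse 1 gave -0.46 (adjusted p = 0.0529), leaving out mouse 18 gave -0.48 (0.0655), leaving out mouse 19 gave -0.48 (0.0577), and leaving out the 4 marked arrays gave -0.50 (0.0550).

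**Figure D1:**
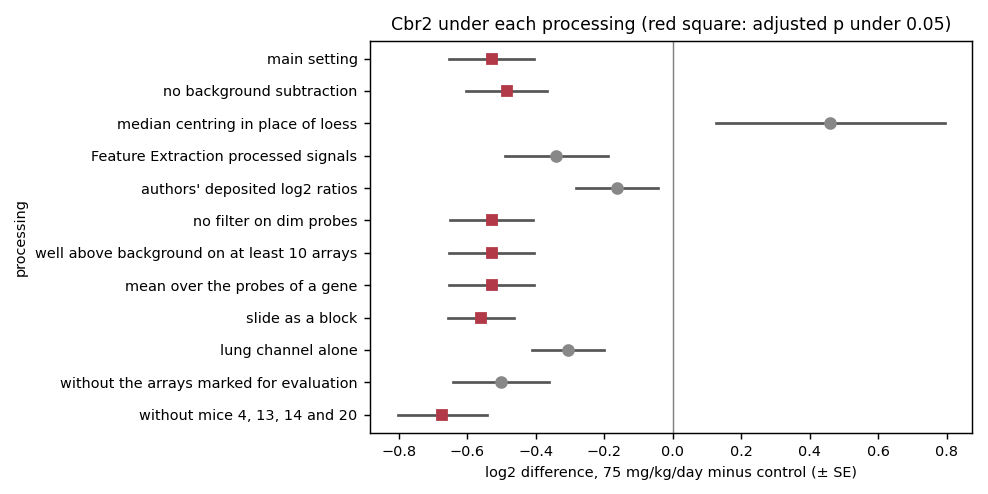
Difference of Cbr2 between 75 mg/kg/day and control in log2 units, with its SE, for the main processing and each alternative that does not leave out a single mouse. The difference is below 0 in every row but the one with median centring, and red squares mark adjusted p under 0.05.

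Slide took a larger share of the variance than in the median gene for Scgb1a1 and Cyp2f2, and a smaller share for Cbr2. Slide accounted for 70.0%, 73.8% and 30.5% of the variance of Scgb1a1, Cyp2f2 and Cbr2, against a median of 44.9% over all genes tested, and dose group for 16.8%, 14.0% and 54.8%, against a median of 16.8%. Across the 19 arrays the Pearson correlation of Cbr2 with Scgb1a1 was 0.63 (permutation p = 0.00389, adjusted over 7 relations 0.0272) and Spearman's rho was 0.57 (permutation p = 0.0128, adjusted 0.0899). Without mice 7 and 19, farthest from the Scgb1a1 median, r was 0.51, after removal of slide means it was 0.90, and after removal of dose group means it was 0.53. For Cyp2f2 with Scgb1a1, r was 0.40 (permutation p = 0.0913, adjusted 0.320) and rho 0.37 (permutation p = 0.115, adjusted 0.268), r without those mice was 0.36, and it was 0.81 and 0.33 after removal of slide and dose group means. The permutations treated the 19 arrays as exchangeable, so these p-values do not allow for arrays of a slide being alike. The arrays share one reference RNA, and no slide held enough arrays for a correlation of its own. Cbr2 and Scgb1a1 ranked 6 and 7 of 41174 probes in lung brightness. The part of shared normalisation in their correlation was not tested. For the other 5 genes no pooled correlation is given, since the arrays fall into separate clusters in them.

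The defence genes of the proximal airway behaved in another way, with large differences between mice of the same dose. Dose group accounted for 18.1% (Ltf) to 25.9% (Bpifb1) of their variance. Bpifa1 had the highest residual SD between mice of a group, 2.61 on the log2 scale, among the 19319 genes tested. Reg3g ranked 3 (2.17), Scgb3a1 8 (1.89), Ltf 9 (1.86) and Bpifb1 36 (1.34), and the median over all genes was 0.17. The residual SD was 0.45 for Scgb1a1, 0.44 for Cyp2f2 and 0.20 for Cbr2.

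For Bpifa1 the log2 ratios were 1.88, 3.57, 0.19, 7.41 and 3.61 in control mice 1 to 5, and 1.86, 0.28, 1.65, 0.41 and 0.93 in mice 6 to 10 at 25 mg/kg/day. They were 0.18, 7.30, 7.14 and 3.99 in mice 12 to 15 at 50, and 5.54, 0.32, 0.57, 0.92 and 6.76 in mice 16 to 20 at 75. High and low mice stood side by side in the control, 50 and 75 mg/kg/day groups, whereas no mouse at 25 mg/kg/day was above 1.86. From the lowest to the highest mouse the ratio spanned 150-fold, and the lung channel alone spanned 2041-fold.

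Its neighbour Bpifb1 gave ratios of 1.03, 0.37, 0.14, 4.11 and 1.37 in control mice 1 to 5, 0.09, 0.25, 0.57, 0.69 and 0.04 in mice 6 to 10, 0.10, 3.78, 2.93 and 2.63 in mice 12 to 15, and 1.04, 0.45, 0.21, 0.01 and 3.70 in mice 16 to 20. Mouse 4 was the highest of the controls, mice 13, 14 and 15 were high at 50 mg/kg/day, and mouse 20 was the highest at 75.

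The secretoglobin Scgb3a1 had ratios of 2.47, 4.44, 1.86, 6.08 and 3.56 in control mice 1 to 5, 1.20, 1.13, 3.15, 2.35 and 1.57 in mice 6 to 10, 1.00, 6.08, 5.69 and 4.77 in mice 12 to 15, and 5.05, 1.37, 1.21, 1.01 and 6.08 in mice 16 to 20. Together with Ltf, and unlike Bpifa1, Bpifb1 and Reg3g, it was well above background on all 19 arrays, and its lung spot intensity ran from 116 to 83979.

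Reg3g, the lectin, was measured above background on 8 of 19 arrays. Its ratios were -0.06, 0.30, -0.09, 6.01 and 0.45 in control mice 1 to 5, -0.28, -0.13, 0.06, 0.01 and 0.02 in mice 6 to 10, -0.06, 5.56, 4.79 and 1.41 in mice 12 to 15, and 1.46, 0.07, -0.03, 0.18 and 5.40 in mice 16 to 20. No array at 25 mg/kg/day measured it, so the control mean, measured on 3 of 5 arrays, is at least 2.59-fold above the 25 mg/kg/day mean in the lung channel, and that mean rests mostly on mouse 4 (adjusted p = 0.836).

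Ltf, lactoferrin, gave ratios of 1.37, 1.54, 0.64, 5.96 and 1.15 in control mice 1 to 5, 1.02, 1.48, 1.90, 1.32 and 0.92 in mice 6 to 10, 1.05, 5.53, 5.63 and 2.07 in mice 12 to 15, and 2.50, 0.61, 0.67, 1.22 and 5.32 in mice 16 to 20. Its other probe ran from 0.25 to 5.85 and was also highest in control mouse 4. Neutrophils hold lactoferrin too. The neutrophil granule genes Ngp, Camp and Mpo ranged between -0.22 and 0.61, -0.13 and 0.74, and -0.47 and 0.27 over all mice, being well above background on 4, 6 and 12 arrays. The mean level of the 10 neutrophil markers other than Ltf, each set to its own mean, ran from -0.60 to 0.29 in controls, -0.18 to 0.09 at 25 mg/kg/day, -0.15 to 0.25 at 50 and -0.0022 to 0.33 at 75. It was highest of its group in mice 4 and 13, at 0.29 and 0.25, while mouse 20 stood at 0.27 and mouse 14 at -0.077. In mouse 4 Ngp, Camp and Mpo read 0.18, 0.50 and 0.21 and Lcn2 2.57, beside 5.96 for Ltf. Lcn2 read 0.51 to 1.04 in the other controls. Over all mice Lcn2 ranged from 0.51 to 3.03 and S100a8 from 0.97 to 3.30. The part of neutrophil RNA in the Ltf values was not tested.

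**Figure D2:**
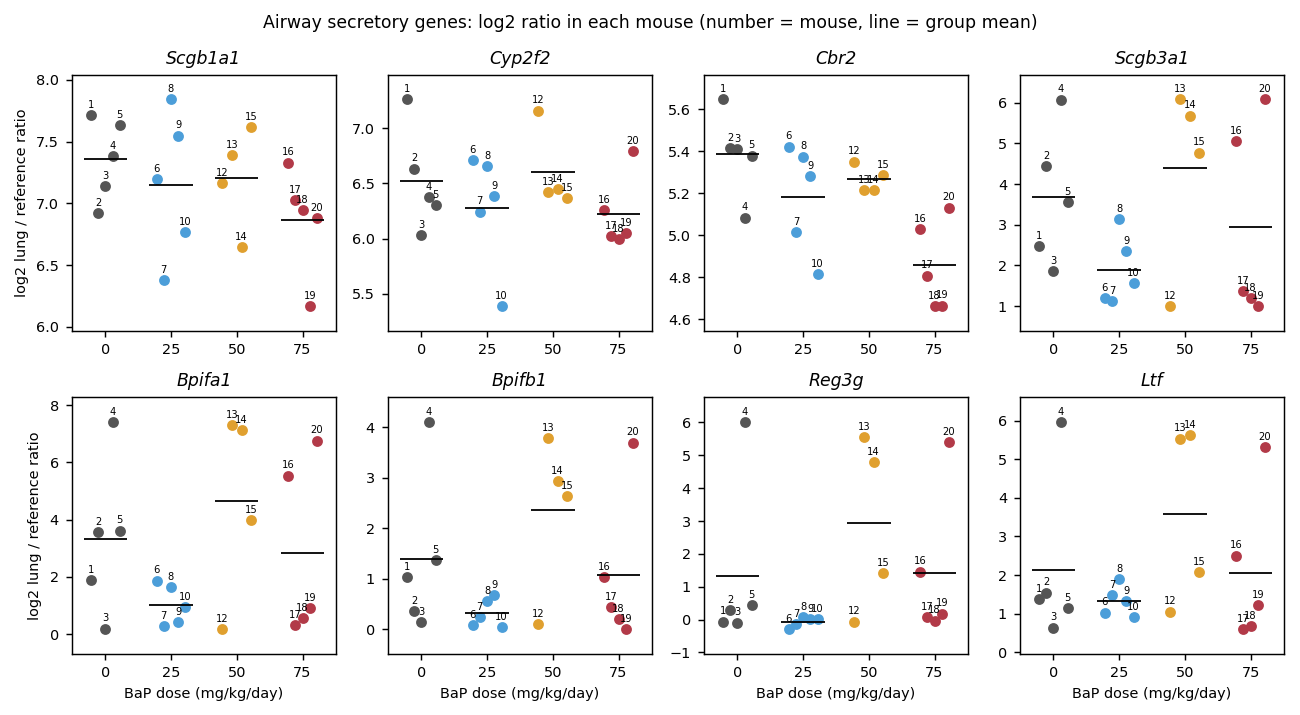
Log2 ratio of lung over reference for the 8 genes, by dose in mg/kg/day, with 1 numbered point per mouse and a line at the group mean; each panel has its own scale. Scgb1a1, Cyp2f2 and Cbr2 stay within 1.67, 1.88 and 0.99 log2 units, while mice 4, 13, 14 and 20 stand high in Scgb3a1, Bpifa1, Bpifb1, Reg3g and Ltf.

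Mice 4, 13, 14 and 20 held the 4 highest ratios of all 5 of these genes. Mouse 4 was a control, mice 13 and 14 had 50 mg/kg/day and mouse 20 had 75 mg/kg/day, and the 4 arrays lay on 4 different slides. Mice 15 and 16 came next in Scgb3a1, Bpifa1, Reg3g and Ltf. Over all genes tested, 54 of 19319 (0.28%) had these 4 mice on top, of which 49 were outside the 8 genes described here. The 3 bronchiolar genes did not: in Cbr2 mouse 4 was the lowest control, and in Scgb1a1 mouse 14 was the lowest at 50 mg/kg/day.

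No dose contrast of these 5 genes passed the test. At 25 mg/kg/day the differences from control were -2.31 ± 1.47 (SE) for Bpifa1, -1.80 ± 1.07 for Scgb3a1, -1.38 ± 1.22 for Reg3g, -1.08 ± 0.76 for Bpifb1 and -0.80 ± 1.05 for Ltf. At 50 mg/kg/day they were 1.32 ± 1.56, 0.70 ± 1.13, 1.61 ± 1.30, 0.96 ± 0.81 and 1.44 ± 1.11 in the same order. At 75 mg/kg/day they were -0.51 ± 1.47, -0.74 ± 1.07, 0.09 ± 1.22, -0.32 ± 0.76 and -0.07 ± 1.05. Adjusted p ranged from 0.635 to 0.984 over these contrasts. For Bpifa1 the 95% interval at 50 mg/kg/day ran from -1.95 to 4.59, so a large change in either direction cannot be told from none with this spread. Without mice 4, 13, 14 and 20 the Bpifa1 difference at 50 mg/kg/day was -0.22 ± 1.33 (adjusted p = 0.971), and that of Scgb3a1 was -0.20 ± 1.12 (adjusted p = 0.970).

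**Figure D3:**
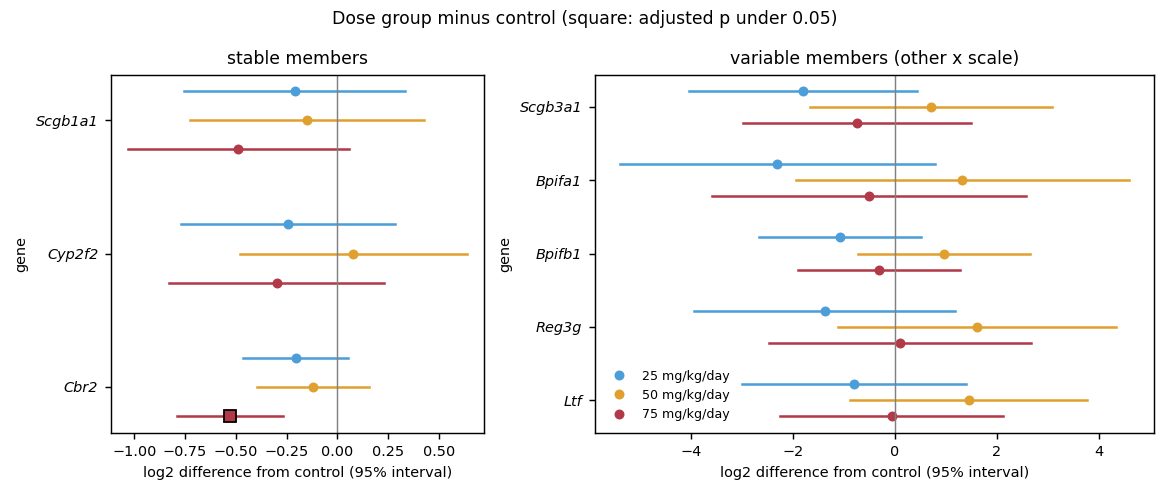
Difference of each dose group from control for the 8 genes in log2 units, with 95% intervals from limma; the left and right panels have different scales. The one square, Cbr2 at 75 mg/kg/day, marks adjusted p under 0.05, and the intervals of Scgb3a1, Bpifa1, Bpifb1, Reg3g and Ltf all cross 0.

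Counted over the 8 genes, none passed at 25 mg/kg/day, where 0.0518% of all genes tested did, and none at 50 mg/kg/day, where 1.08% did; with limma, no gene of the 8 had an unadjusted p under 0.05 in either. At 75 mg/kg/day 1 of 8 passed, against 4.15% of all genes in either direction and 1.51% lower. In the linear trend over all mice 1 of 8 passed, against 4.64% in either direction and 1.83% lower. In the trend over treated mice none passed, against 0.544% of all genes. In that trend 1 of the 8 had an unadjusted p under 0.05, beside 1542 of all 19319 genes tested. The counts at 25 and 50 mg/kg/day and in treated mice were 0 under all 30 alternatives, and with slide as a block 2 genes, Cbr2 and Scgb1a1, passed at 75 mg/kg/day. The median difference of the 8 genes was -0.94, 0.83 and -0.40 at 25, 50 and 75 mg/kg/day, beside 0.0077, -0.0013 and -0.0075 over all genes; the contrasts share the same 5 control mice.

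In Scgb3a1, Bpifa1, Bpifb1 and Ltf the reference spot was brighter on arrays with a bright lung spot, although every array had the same reference RNA. For Bpifa1 the reference spot intensity was 1040 in mouse 4, 706 in mouse 13, 1059 in mouse 14 and 519 in mouse 20, and 30.0 to 85.0 in the other arrays. For Scgb3a1 it ran from 35.0 to 1456, the latter in mouse 4. For Reg3g the reference spot stayed between 30.0 and 59.5 while the lung spot ran from 64 to 5603. The log2 ratio of Bpifa1 and Scgb3a1 therefore spanned less (7.23 and 5.08) than the lung channel alone (11.00 and 9.33). The part of the reference signal in these ratios was not tested.

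**Figure D4:**
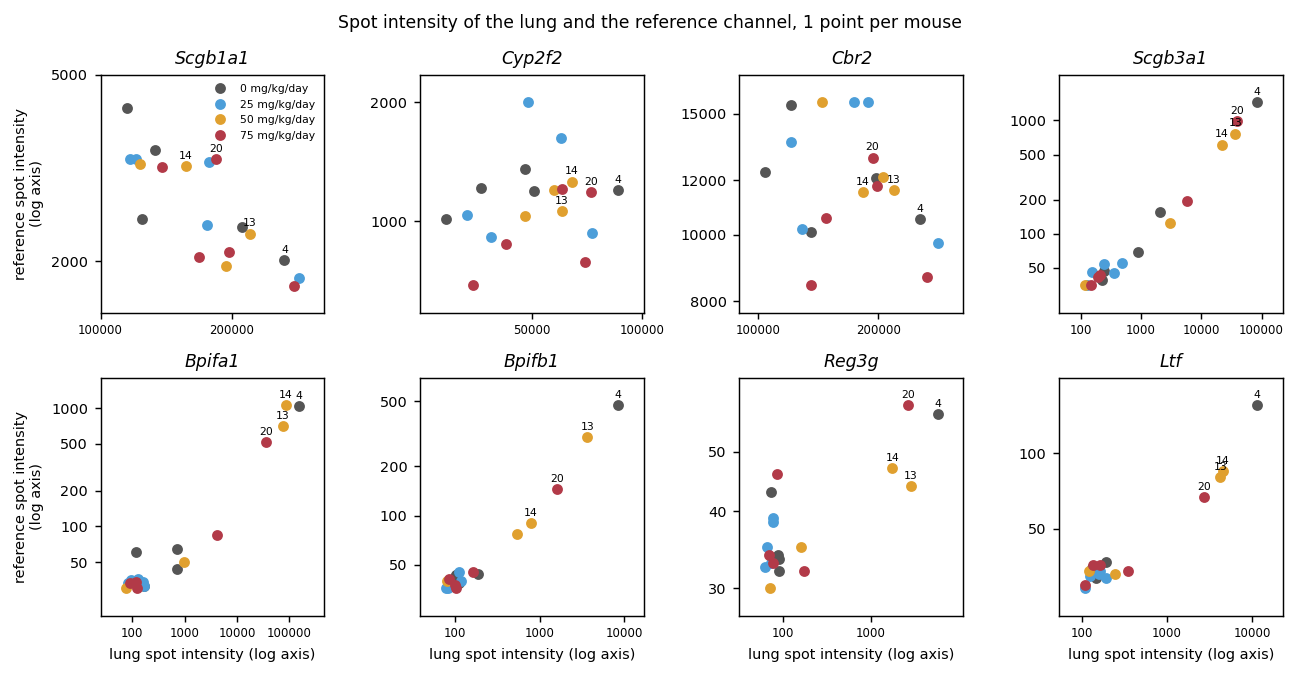
Spot intensity of the lung channel (x) against the reference channel (y) for the 8 genes, both on log axes, with 1 point per mouse coloured by dose and mice 4, 13, 14 and 20 numbered. In Scgb3a1, Bpifa1, Bpifb1 and Ltf the arrays with a bright lung spot also have a bright reference spot, up to 1456 for Scgb3a1, whereas Scgb1a1 has no such rise.

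Some goblet cell markers moved with the variable genes, and others did not. Of 10 markers 6 were tested, and 3 of these, Muc5b (a gel-forming airway mucin), Agr2 (a chaperone of mucin folding) and Tff2 (a trefoil peptide), had the same 4 mice on top. Muc5ac, Spdef and Clca1 did not. Muc5ac ranged from -0.11 to 0.71 and Spdef from 0.01 to 0.99 over all mice. Muc5b read 4.70 in mouse 4, 3.69 in mouse 13, 3.47 in mouse 14 and 3.49 in mouse 20, and at most 1.43 in the others. The mean level of the 6 markers, each set to its own mean, ran from -0.36 to 2.47 in controls, -0.56 to -0.28 at 25 mg/kg/day, -0.45 to 0.96 at 50 and -0.46 to 0.73 at 75, highest in mouse 4. Clca1 stood at 5.07 in mouse 4 and between -0.13 and 0.93 in all others. None of the 6 passed the test at any dose, and none had an unadjusted p under 0.05. The basal cell keratin Krt5 read 2.03, 1.75, 1.67 and 1.14 in mice 4, 13, 14 and 20, but 3.12 in control mouse 5, which alone had Lor at 6.96 and Krt13 at 3.99, genes of squamous epithelium. The part of these cell types in the values of the variable genes was not tested.

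Of 17 ciliated cell markers 0 had those 4 mice on top, and nor did any of 11 markers of alveolar type 2 cells or 5 of airway cartilage. Over all genes tested 0.28% had them on top, so a count of 0 is usual for lists this short. The mean level of the cartilage list was still highest in mice 13 and 20, at 0.63 and 0.21. It was 0.03 and -0.01 in mice 4 and 14 and at most 0.11 in the others. None of 6 basal cell markers had them as its top 4 either, but the mean level of that list was 1.97 in control mouse 5, 0.97, 0.52, 0.63 and 0.22 in mice 4, 13, 14 and 20, and at most -0.13 in all others. The ciliated genes with the brightest spots, Tppp3 and Tekt1, ranged from 4.52 to 5.29 and from 3.11 to 4.26. Their differences at 75 mg/kg/day were -0.26 ± 0.12 (SE, adjusted p = 0.274) and -0.22 ± 0.18 (adjusted p = 0.582). Sftpc, the surfactant protein of alveolar type 2 cells, ranged from 6.02 to 8.02 and differed by -0.32 ± 0.30 at 75 mg/kg/day (adjusted p = 0.632).

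**Figure D5:**
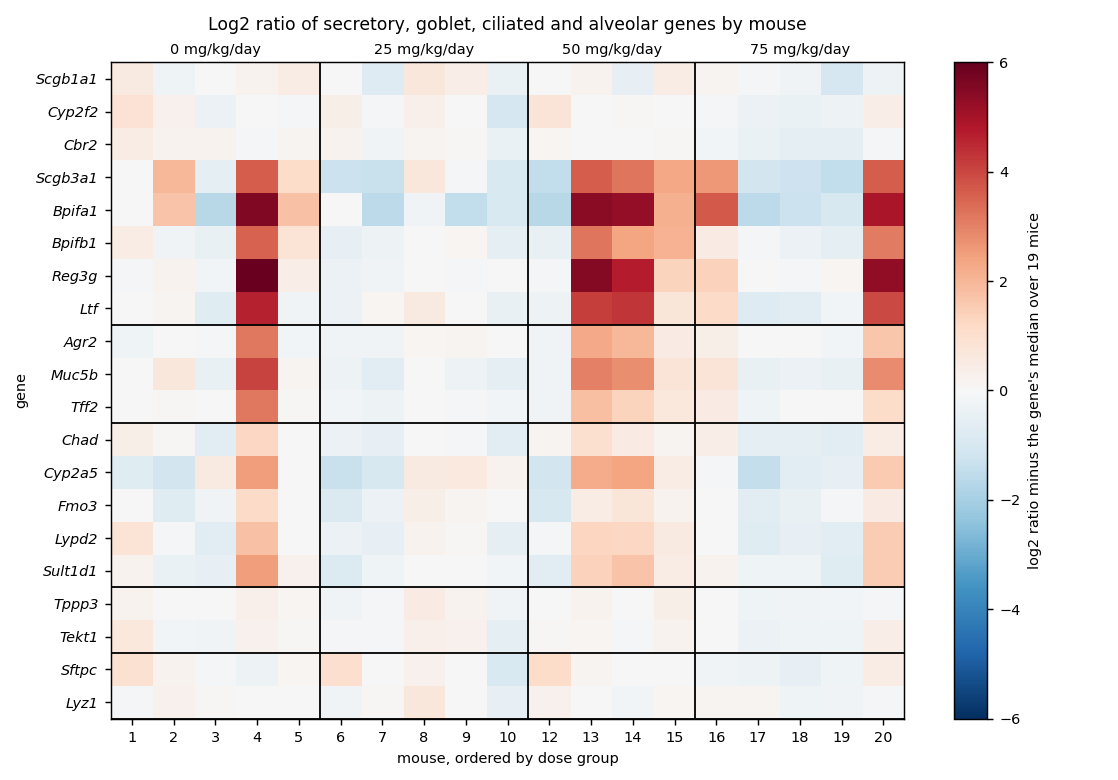
Log2 ratio of each gene minus its own median over 19 mice, with mice in columns ordered by dose group; rows show the 8 genes, the goblet cell and other club cell genes that had mice 4, 13, 14 and 20 on top, and the 2 brightest ciliated and alveolar type 2 markers. Scgb3a1, Bpifa1, Bpifb1, Reg3g and Ltf are red in mice 4, 13, 14 and 20, with Reg3g at 6.01 in mouse 4. The goblet and other club cell rows are red there because they were chosen for it, and the rest of those lists is not shown. Scgb1a1, Cyp2f2, Cbr2 and the lowest blocks, chosen by brightness, stay pale.

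Other genes known from club cells split in a similar way. None of the 20 on the list passed at 25, 50 or 75 mg/kg/day, and their median difference was -0.15, 0.07 and -0.21. At these doses 2, 1 and 2 of them had an unadjusted limma p under 0.05. Of all 19319 genes tested, 1506, 2456 and 3338 did. The brightest, Hp (haptoglobin) and Aldh1a1 (a retinal dehydrogenase), differed by -0.23 ± 0.19 (SE) and -0.05 ± 0.16 at 75 mg/kg/day (adjusted p = 0.572 and 0.912). Of the 20, 5 had mice 4, 13, 14 and 20 on top, among them Chad, Cyp2a5, Lypd2 and Sult1d1. Cyp2a5, a P450 that has a near-identical copy, Cyp2a4, read 8.06, 7.76, 7.91 and 7.12 in those mice and 4.10 to 6.14 in the others. In the list of conjugating and cofactor enzymes, 1 of 13 passed at each dose: Ephx1, microsomal epoxide hydrolase, rose by 0.78 ± 0.13, 1.23 ± 0.14 and 1.54 ± 0.13 (SE; adjusted p = 0.0276, 6.99e-05 and 7.68e-07).

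Of 18 transcription factors of airway secretory cells none passed at 25, 50 or 75 mg/kg/day. At these doses 2, 1 and 1 had an unadjusted limma p under 0.05, beside 1506, 2456 and 3338 of all 19319 genes tested. Foxa2, a forkhead factor of airway epithelium, ranged from 4.35 to 5.32 and differed by 0.01 ± 0.16 (SE) at 75 mg/kg/day (adjusted p = 0.984), and Cebpb, a C/EBP factor, differed by -0.36 ± 0.14 (adjusted p = 0.176). Of 17 other mucosal defence genes none passed at a single dose (2, 0 and 3 with an unadjusted p under 0.05), and Lcn2, the siderophore-binding lipocalin, rose in the trend over all mice by 0.47 for each 25 mg/kg/day (adjusted p = 0.0262). None of these 17 genes had mice 4, 13, 14 and 20 on top, where 0.28% of all genes tested did. Lcn2 read 2.57, 2.52, 0.83 and 2.27 in mice 4, 13, 14 and 20 and 0.51 to 3.03 in the others. In mouse 14 Bpifa1 was 7.14, and in mouse 12, where Lcn2 was 2.84, Bpifa1 was 0.18. Pigr, another of the 17, read 3.20, 2.53, 1.96 and 2.14 in mice 4, 13, 14 and 20 and 0.70 to 2.42 in the others.

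The named genes most like Scgb1a1 over the 19 arrays, by Pearson r of the log2 ratio, were Clic3 (0.83), Myh7 (0.82), Rnf186 (0.81), Tmem51 (0.80) and Cldn3 (0.79). The same measure over the 19 arrays ranked Muc5b, Tmc5, Mybphl, Sult1d1 and Tnni3 nearest to Bpifa1, and Muc5b, Agr2, Tmc5, Sult1d1 and Tff2 nearest to Reg3g. For these no r is given, since mice 4, 13, 14 and 20 stand apart from the others in them. Myh7, Tnni3 and Mybphl are genes of heart muscle. Tnni3 read 4.92, 5.82, 3.77 and 4.44 in mice 4, 13, 14 and 20 and 0.32 to 3.19 in the others. Myh7 did not share this pattern: it read 5.18, 5.46, 5.04 and 5.12 in those mice, within 5.04 to 5.55 over all mice. Other genes known from heart muscle, chosen after their values were seen, had mice 4, 13, 14 and 20 on top: Tnnt2, Tnnc1, Mybpc3, Myl4, Myl7, Pln and Atp2a2. Heart muscle genes without those mice on top were not counted. The part of heart muscle RNA in these arrays was not tested.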

How the data were processed

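RNA from part of the lung of 19 mice was measured on 2-colour Agilent arrays. The authors deposited scanner output with the intensity of each spot, which the file headers credit to Feature Extraction 10.7.3.1, and a table of log2 ratios, with no processing stated in the labels, which followed the scanner ratios. From the median intensities, normexp removed the background, with 50 added to each channel, which shrinks the ratio of dim probes, and ratios were loess-normalised within arrays with limma 3.58.1 in R 4.3.3. Probes were named through RefSeq accessions (23374 of 41174 probes, 16535 symbols). A probe was kept if 4 or more arrays called its lung signal well above background (24505 probes), with the brightest probe per gene, giving 19319 genes (12328 with a symbol). Group means and a slope on dose were fitted with limma over all mice, and p-values were adjusted by Benjamini-Hochberg over all genes, with a threshold of 0.05. The precision is limited by the number of arrays.

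Genes named are the 9 members, list genes past the threshold (otherwise the 2 brightest of a list), and the 5 named genes most like Scgb1a1, Bpifa1 and Reg3g. Clca1, Muc5ac, Spdef, Mpo, Ngp, Camp, Pigr and genes with mice 4, 13, 14 and 20 on top were chosen after their values were seen. Members and lists were chosen with earlier results of these data known. One gene of the club cell list is not reported here by name. Permutation tests were two-sided with 100000 resamples (scipy 1.17.1). On simulated data for 75 mg/kg/day over 19319 genes, 98 of 100 genes changed by 2 log2 units and 94 of 100 changed by 1 were called, with 11 false calls. The changed genes were drawn at random, and the noise was independent, with each gene's own residual SD and no slide effect. These rates do not apply to Scgb3a1, Bpifa1, Bpifb1, Reg3g and Ltf, whose residual SD was 1.34 to 2.61 against a median of 0.17. Alternatives changed the background, the normalisation, the signals, the filter, the probe, the slide block, the reference channel and the mice included. The lung channel alone was computed from the loess-normalised ratio and the mean brightness of both channels, scaled between arrays. It therefore still depends on the reference channel.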

Additional observations from a re-analysis of the deposited data

Results flagged for a closer look

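The values in this part were picked out because the highest or lowest mouse of a group lay far from its neighbour relative to the whole range of the group. Of 64 groups examined 12 met that rule, where chance would give about 3.2 if the groups were independent. They were genes and marker lists of the same mice, so the 12 are not separate events. Among the secretory genes these were Reg3g in control mouse 4 (6.01, next 0.45) and in mouse 20 at 75 mg/kg/day (5.40, next 1.46), Ltf in control mouse 4 (5.96, next 1.54), Bpifb1 in mouse 20 (3.70, next 1.04), and Cyp2f2 in mouse 12 at 50 mg/kg/day (7.16, next 6.45).

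Among marker lists, each given as a mean log2 level around 0, the goblet list stood at 2.47 in control mouse 4 (next -0.23). The basal list stood at 0.22 in mouse 20 (next -0.31) and was lowest in mouse 8 at -0.41 (next -0.31). The airway cartilage list stood at 0.63 in mouse 13 (next -0.01) and 0.21 in mouse 20 (next -0.10). The squamous list stood at 3.63 in control mouse 5 (next -0.09) and was lowest in mouse 7 at -0.34 (next -0.21).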

How the results depend on the processing

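Counts of genes passing at 25 and 50 mg/kg/day and in the treated trend were 0 under all 30 alternatives. At 75 mg/kg/day the count of 1 became 0 with median centring, scanner-processed signals, the authors' deposited ratios, the lung channel alone and without the marked arrays, and 2 with slide as a block; leaving out single mice gave 0 to 1. In the trend over all mice it became 0 with median centring, scanner-processed signals, deposited ratios, no filter on dim probes and without the marked arrays, and 2 with slide as a block; leaving out single mice gave 0 to 1, with 0 without mice 1, 2, 3, 5, 16, 17, 18 or 19.

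Of 717 single-gene values, 666 kept direction and side of the threshold, 7 lost the call, 1 gained it and 43 changed sign, of which none was called after the change. With median centring Scgb1a1 read 0.15, 0.23 and 0.45 at 25, 50 and 75 mg/kg/day, Cbr2 0.14, 0.25 and 0.46, Cyp2f2 0.086 at 25 and 0.56 at 75, and Reg3g -0.091 at 75. With scanner-processed signals Cyp2f2 at 50 read -0.071 and Reg3g at 75 -0.64. With deposited ratios Cbr2 at 50 read 0.081 and Reg3g at 75 -0.055. In the lung channel alone Cyp2f2 at 50 read -0.026, Cbr2 at 50 0.036 and Reg3g at 75 -0.016. With slide as a block Cyp2f2 at 50 read -0.10 and Ltf at 75 0.084. Without background subtraction Reg3g at 75 read -0.037. Without the marked arrays Cyp2f2 at 50 read -0.024 and Reg3g at 75 -1.83. Without mice 4, 13, 14 and 20, chosen after seeing the data, Scgb1a1 at 50 read 0.039, Scgb3a1 at 50 -0.20, Bpifa1 at 50 -0.22, Ltf at 25 0.15 and Ltf at 75 0.077. Leaving out 1 mouse at a time, the ranges that crossed 0 were Scgb1a1 at 50 (-0.29 to 0.034), Cyp2f2 at 50 (-0.11 to 0.26), Bpifa1 at 75 (-1.50 to 0.51), Bpifb1 at 75 (-0.98 to 0.35), Reg3g at 75 (-0.90 to 1.27), Ltf at 25 (-1.18 to 0.15) and Ltf at 75 (-0.88 to 0.89). The cause of these changes was not tested.

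Over all genes, 801 passed at 75 mg/kg/day, 529 with median centring, 1348 with scanner-processed signals, 1768 with slide as a block and 448 to 978 without single mice. At 50 mg/kg/day 209 passed, with 9 (median centring) to 515 (scanner-processed signals); at 25, 10 passed, with 0 to 16; in the trends 897 (731 to 1739) and 105 (21 to 304). No paired analysis was possible because mouse numbers differ between groups, so mice are not paired by number; mice of different groups that share a slide were compared through the fit with slide as a block. A ratio understates the change of dim probes such as Reg3g, because an offset of 50 is added to both channels.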

Other observations

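Grp, gastrin-releasing peptide of airway neuroendocrine cells, fell by 1.22 ± 0.29 (SE) on the log2 scale at 50 mg/kg/day and by 1.10 ± 0.27 at 75 (limma, adjusted p = 0.0419 and 0.0239; 1.08% and 4.15% of all genes passed), and was the only one of 8 neuroendocrine markers past the threshold at these doses. It read 1.35 to 2.29 in controls and 0.12 to 0.96 at 75 mg/kg/day, so those groups did not overlap. Of 11 neutrophil markers 1 passed at 75 mg/kg/day: Csf3r, the receptor for granulocyte colony-stimulating factor, rose by 0.51 ± 0.13 (adjusted p = 0.0251).

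Saa3, an acute-phase serum amyloid, rose in the trend over treated mice (limma, adjusted p = 0.0244), but did not pass in the trend over all mice (adjusted p = 0.0687) or at 75 mg/kg/day against control (1.98 ± 0.65, SE, adjusted p = 0.0997). It read -3.05, -2.27, -2.78, 0.21 and -2.76 in control mice 1 to 5 and 0.46, -1.05, 0.81, -0.97 and 0.01 in mice 16 to 20 at 75 mg/kg/day. Saa3 was at -3.15 in mouse 14, in which Bpifa1 and Reg3g were high, and at 0.58 in mouse 12, in which both were low.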
